A study of Caenorhabditis elegans with 2 samples.

Results

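The cyp genes of Caenorhabditis elegans encode cytochrome P450 enzymes. All protein-coding genes of the WBcel235 assembly whose symbol begins with cyp- and a digit were taken, which gave 74 of 19973 nuclear protein-coding genes. They form 25 subfamilies (a number and a letter, such as cyp-13A) in 15 families, and 13 subfamilies hold 1 gene. The P450 gene daf-9 carries another kind of symbol and is not a member. ChIP-seq was used to map where ELT-3, an epidermal transcription factor of the GATA family, binds in entire larvae of the first stage (L1), pooled male and female. The larvae were of strain OP75, genotype unc-119(ed3) III; wgIs75, and expressed ELT-3 with a C-terminal GFP-FLAG tag from a stably carried transgene. The antibody is labelled only by its target, and all cells of the animal contributed. There were 2 biological replicates of this 1 condition and no other genotype, stage or treatment, so no test between conditions was possible. A control used in peak calling was not analysed here, and peak lists hold no expression values with which to check tissue or stage.

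P450 enzymes hold a heme group and use molecular oxygen to add an oxygen atom to small lipophilic molecules. Microsomal members receive electrons from P450 reductase and cytochrome b5. In nematodes several subfamilies are known for their induction by foreign compounds, while other members act on fatty acids, sterols or the lipids of the eggshell.

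A gene was counted with a list when a peak summit of that list fell in its promoter window, which reached 1500 bp upstream and 500 bp downstream from the annotated 5′ end. Of 4 lists on the ce11 build, replicate 1 held 17087 peaks, replicate 2 held 7079, and the list from both replicates pooled held 30000. An irreproducible discovery rate (IDR) threshold, designed to retain peaks with similar ranks across replicates, gave the IDR set of 1014 peaks. The pooled and replicate lists are labelled as peaks and background, so not every entry need be a binding site. Read depth is unknown. Ranks follow the authors' signal value for each peak, with 1 the highest, and apply within a list only.

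The 5 IDR summits in cyp promoter windows are shown first, since the cyp count in the strictest set rests on them. Each sequence runs 5′ to 3′ on the strand of the gene over 101 bases, 50 on each side of the summit, from the RefSeq WBcel235 (ce11) genome. Capitals mark 4 GATA hexamers on either strand, which are AGATAA along with TGATAA and the forms ending in G, AGATAG along with TGATAG. Neighbouring matches can overlap, as in TTATCTTATCA.
cyp-29A4 (chrV:9654335-9654435, plus strand): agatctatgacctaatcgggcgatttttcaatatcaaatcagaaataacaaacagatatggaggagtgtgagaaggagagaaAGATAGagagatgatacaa
cyp-43A1 (chrX:5714417-5714517, plus strand): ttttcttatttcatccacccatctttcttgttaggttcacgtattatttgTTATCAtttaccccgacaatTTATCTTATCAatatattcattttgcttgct
cyp-14A1 (chrX:13267362-13267462, minus strand): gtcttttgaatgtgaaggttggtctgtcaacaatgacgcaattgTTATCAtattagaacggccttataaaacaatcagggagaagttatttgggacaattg
cyp-13A5 (chrII:9800409-9800509, minus strand): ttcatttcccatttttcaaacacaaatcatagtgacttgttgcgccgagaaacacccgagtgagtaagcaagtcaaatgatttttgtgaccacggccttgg
cyp-29A3 (chrV:59141-59241, plus strand): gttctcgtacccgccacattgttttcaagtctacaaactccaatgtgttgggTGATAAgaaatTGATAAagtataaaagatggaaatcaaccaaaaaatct

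The cyp-43A1 sequence holds 3 hexamers, of which 1 begins at the summit base itself, and the cyp-29A3 sequence holds 2. The cyp-29A4 and cyp-14A1 sequences hold 1 each, and the cyp-13A5 sequence holds none within 50 bp. Sequences at a pair of IDR summits that lie beyond the promoter window but have a cyp gene as their nearest gene are shown next.
cyp-14A5 distal peak (chrV:5425258-5425358, minus strand): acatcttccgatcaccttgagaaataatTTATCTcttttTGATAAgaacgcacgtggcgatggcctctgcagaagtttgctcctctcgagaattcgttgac
cyp-34A1 distal peak (chrV:15286093-15286193, minus strand): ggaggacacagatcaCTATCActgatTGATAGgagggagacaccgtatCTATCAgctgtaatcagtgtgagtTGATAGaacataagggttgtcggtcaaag

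The cyp-14A5 distal sequence holds 2 hexamers on opposite strands, 5 bases apart. The cyp-34A1 distal sequence, which lies in a coding exon, holds 4 matches, all of TGATAG or its reverse complement CTATCA. The next 4 sequences surround pooled summits outside the IDR set. They are shown because cyp-37A1 had the highest rank among them, cyp-33C5 and cyp-34A9 led the 2 largest subfamilies without an IDR summit, and the cyp-33C7 peak is the one counted for more than 1 cyp gene.
cyp-37A1 (chrII:14018391-14018491, minus strand): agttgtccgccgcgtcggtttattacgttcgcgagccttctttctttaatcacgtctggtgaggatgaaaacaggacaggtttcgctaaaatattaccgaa
cyp-33C5 (chrV:2244925-2245025, plus strand): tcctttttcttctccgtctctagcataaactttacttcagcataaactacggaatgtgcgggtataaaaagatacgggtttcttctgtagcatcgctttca
cyp-34A9 (chrV:3970540-3970640, minus strand): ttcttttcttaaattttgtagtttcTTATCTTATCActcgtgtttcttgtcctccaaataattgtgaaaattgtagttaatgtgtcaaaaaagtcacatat
cyp-33C7 (chrV:2250322-2250422, plus strand): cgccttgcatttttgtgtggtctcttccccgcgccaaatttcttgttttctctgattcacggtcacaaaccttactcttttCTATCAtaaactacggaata

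In cyp-34A9 a pair of overlapping hexamers stands 25 and 20 bases upstream of the summit, and in cyp-33C7 a single hexamer starts 31 bases downstream of it. The cyp-37A1 and cyp-33C5 sequences hold no match, which says only that these letters are not in these windows.

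The 5 genes with an IDR summit came from 4 subfamilies and made up 6.76% of the 74 members (95% Wilson interval 2.92 to 14.9%), while 2.95% of all protein-coding genes had one. The background value lies just inside this interval. The interval covers counting error over genes only, and neighbouring paralogues are not independent genes. These were cyp-29A4, cyp-43A1, cyp-14A1, cyp-13A5 and cyp-29A3, and each summit lay in intergenic sequence and in no other gene's window. The count was 3 when the 1014 highest-signal peaks of replicate 1 took the place of the IDR set (without replicate 2), 4.05% beside 3.38% of all genes, and 2 with those of replicate 2 (without replicate 1), 2.70% beside 3.44%. Among the 1014 highest-signal pooled peaks, 2 cyp genes (2.70%) were counted, beside 3.41% of all genes, so with this list, as with the strongest replicate 2 peaks, the cyp share was the lower one.

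The longer lists reached more members. Of the 74 genes, 44 (59.5%, Wilson interval 48.1 to 69.9%) had a pooled summit in the window, beside 52.1% of all genes. A replicate 1 summit was found for 34 (45.9%, interval 35.1 to 57.2%) beside 33.9%, and a replicate 2 summit for 23 (31.1%, interval 21.7 to 42.3%) beside 17.9%. Both replicates had a summit in the window of 16 genes (21.6%) beside 13.6%, and in 15 of them (20.3%, interval 12.7 to 30.8%) the peaks overlapped by at least 1 bp, beside 12.2%. The pooled share lay closest to its background, whose value falls within the interval. Of the replicate lists, 18 genes had a summit in replicate 1 alone (24.3%, all genes 20.3%) and 7 in replicate 2 alone (9.46%, all genes 4.32%). No summit in any of the 4 lists was found for 28 genes (37.8%, all genes 42.9%). With replicate 1 shortened to the 7079 peaks with the highest signal, its count went from 34 to 16 cyp genes (21.6%, all genes 17.0%), and the count for both replicates from 16 to 10 (13.5%, all genes 10.3%). Both shares lay nearer to their background than with the whole lists.

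**Figure D1:**
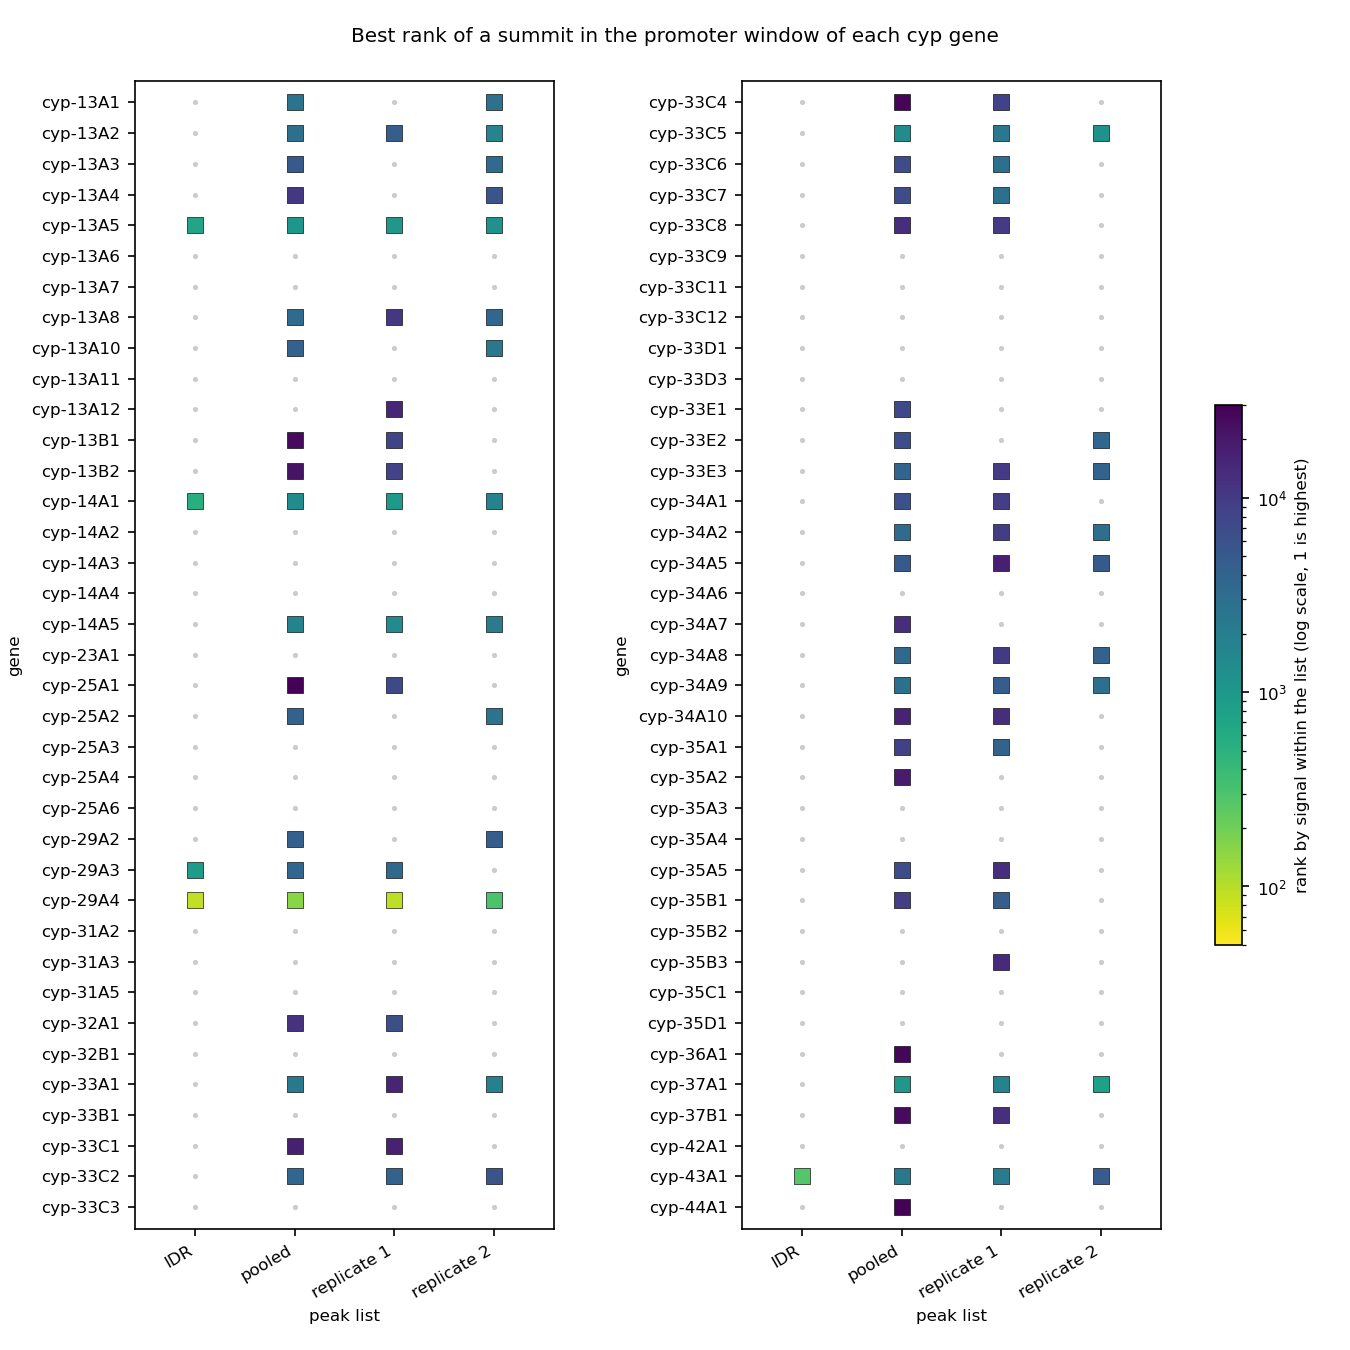
Best rank by signal (colour, log scale, 1 is highest) of any summit in the promoter window of each of the 74 cyp genes, by peak list; a small dot marks no summit in that list. The cyp-29A4 window is the brightest in every list, and 28 genes have dots only.

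In each of the 4 lists the highest-ranked summit within a cyp window was that of cyp-29A4. Its IDR peak (WBGene00007140, chrV:9654257-9654512) ranked 89 of 1014 with a signal of 100.3, and the summit lay 370 bp upstream of the 5′ end. The gene ranked 95 in replicate 1 (signal 50.6) and 308 in replicate 2 (signal 60.3), with summits 356 and 400 bp upstream, and 157 in the pooled list (signal 113.5). It was the only member counted under every alternative to the IDR set or window that was run.

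cyp-43A1 and cyp-14A1 carried their IDR summits close to the 5′ end, on chromosome X. The cyp-43A1 peak (WBGene00017108, chrX:5714339-5714594) ranked 276 with a signal of 73.4, 55 bp upstream, and its replicate peaks ranked 2171 in replicate 1 (signal 16) and 4644 in replicate 2 (signal 17.96), which is 12.7% and 65.6% of the way down those lists. The cyp-14A1 peak (WBGene00010705, chrX:13267284-13267539) ranked 535 with a signal of 59.97, 57 bp upstream. Its replicate peaks ranked 937 (signal 23.7) and 1754 (signal 28.8) with summits 12 bp apart. Genes of the cyp-14A subfamily are known for induction by foreign compounds.

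cyp-13A5 had a peak in both replicates, and cyp-29A3 in 1 replicate only. The cyp-13A5 peak (WBGene00011672, chrII:9800331-9800586) ranked 702 with a signal of 54.2, 97 bp upstream, and its replicate peaks ranked 983 (signal 23.2) and 1183 (signal 34.8), which is 5.75% and 16.7% of the way down their lists. cyp-29A3 encodes an enzyme that oxidises long-chain polyunsaturated fatty acids. Its peak (WBGene00021412, chrV:59063-59318) ranked 902 with a signal of 48.99, 48 bp upstream, and overlapped a replicate 1 peak of rank 3544 (signal 12.97) and no replicate 2 peak. The replicate 1 and pooled summits there lay in a coding exon, 50 and 28 bp downstream of the 5′ end. Among all 590 genes with an IDR summit, 552 had overlapping replicate peaks with both summits in the window, and among the 5 cyp genes 4 did.

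Another 3 IDR peaks had a cyp gene as the nearest 5′ end but lay beyond the window, and all 3 ranked in the best 200. The highest IDR rank of any peak assigned to a cyp gene was that of cyp-14A5 (WBGene00000373, chrV:5425180-5425435), at 56 with a signal of 116.7. Its summit was intergenic, 2026 bp upstream, and its replicate peaks ranked 503 and 130. The cyp-34A1 peak (WBGene00011698, chrV:15286015-15286270) ranked 127 with a signal of 92.3, in a coding exon 1813 bp downstream of the 5′ end, with replicate ranks of 369 and 256.

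cyp-36A1, which acts downstream of the hypoxia regulators EGL-9 and HIF-1 in behaviour, carried the remaining peak (WBGene00007913, chrI:8344459-8344714). It ranked 143 with a signal of 89.5, in an intron 1436 bp downstream, and its replicate peaks ranked 203 and 146. Counted by the nearest 5′ end at any distance, 8 cyp genes (10.8%) had an IDR peak, beside 4.23% of all genes. This count was added after the data were seen. Among the in-window summits cyp-29A4 lay farthest from its gene, and cyp-36A1 and cyp-14A5 lay nearest to the window on its downstream and upstream sides. In their windows proper, cyp-36A1 had a pooled summit of rank 27690 only, whereas cyp-14A5 had further peaks 117 and 147 bp upstream of the 5′ end, of rank 1451 in replicate 1 and 2167 in replicate 2.

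Overlapping replicate peaks beyond the window, with a cyp gene as nearest, numbered 8 at 7 genes, and 3 of the 8 were the IDR peaks of cyp-14A5, cyp-34A1 and cyp-36A1. The matching count over all genes is not given here, so the pairs are only described. Of the rest, the pair 2075 bp downstream of the cyp-33C4 5′ end ranked 1338 in replicate 1 and 1373 in replicate 2. An intron of cyp-34A9 held a pair of ranks 2300 and 3672, 685 bp downstream of the 5′ end. cyp-29A2 was the nearest gene of a pair ranked 1167 and 6482, 3262 bp upstream in an intron of K10D6.4, and of another ranked 4648 and 4934, 4574 bp upstream in the same gene. cyp-42A1, which had no summit in its window, was nearest to a pair ranked 6227 and 4326, 3280 bp upstream.

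**Figure D2:**
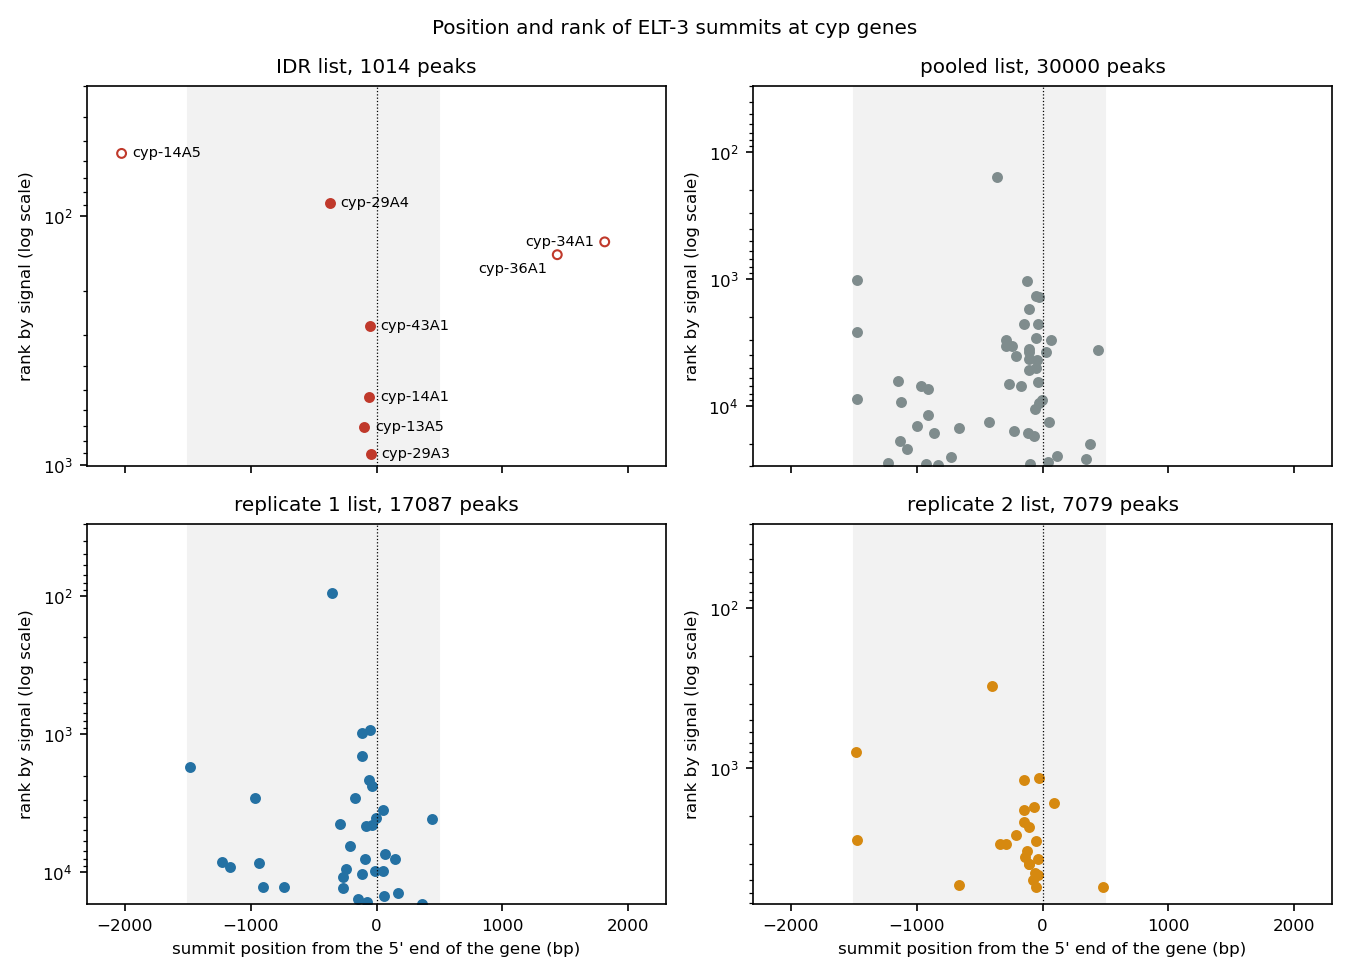
Summit position from the 5′ end (bp, negative is upstream) against rank by signal (log scale, higher ranks at the top), 1 panel per list; shading marks the promoter window and open circles mark IDR summits beyond it. Filled points crowd within 200 bp upstream of the 5′ end in all 4 panels, and the 3 open circles all rank better than 200.

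Summits at cyp genes lay close to the 5′ end. The highest-ranked replicate 2 summit of each gene lay at a median of -109 bp from the 5′ end (negative is upstream) over 23 cyp genes, and at -320 bp over 3584 genes in all. Within 200 bp upstream lay 16 of those 23 (69.6%, all genes 23.6%). In replicate 1 the median was -113 bp over 34 cyp genes (all genes -377 bp), with 14 (41.2%) within 200 bp upstream beside 17.3% of all genes. The pooled list gave -113 bp (all genes -387 bp) and 21 of 44 (47.7%) beside 16.8%. Of the 5 IDR summits 4 lay within 200 bp upstream, where 28.0% of all genes with an IDR summit had theirs. Intergenic distances of cyp genes, which bound how far upstream a summit can lie before it meets another gene, were not compared.

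By the best summit of each gene, ranks did not set the cyp genes apart in the replicate lists. The median rank of the best summit was 7695 in replicate 1 over cyp genes and 7082 over all genes with one, and 2865 against 2851.5 in replicate 2. In the pooled list it was 5746 against 11674, and in the IDR set 535 against 475. Only the pooled list placed the cyp genes well above the median of all genes. The 16 overlapping pairs had summits a median of 34 bp apart (27 bp over all 2730 pairs), and 12 lay within 50 bp. Their median ranks of 4329.5 in replicate 1 and 2516 in replicate 2 stand beside 2444.5 and 2125 over all pairs. The cyp pairs thus had the weaker median rank in both lists, mainly in replicate 1.

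The cyp-13A subfamily, with 11 genes, had summits at more members in replicate 2 than in replicate 1, the longer list. It had an IDR summit at 1 gene (cyp-13A5), a pooled summit at 7, a replicate 2 summit at 7, a replicate 1 summit at 4 and overlapping pairs at 3, and 3 genes had no summit. In the same order, the shares over all genes were 2.95%, 52.1%, 17.9%, 33.9%, 12.2% and 42.9%. The replicate 2 summit of cyp-13A1 lay 1478 bp upstream, nearer to the 5′ end of T10B9.14. cyp-13A2 was the only cyp gene with 2 overlapping pairs inside its promoter window. Of these, 1 pair ranked 4522 and 2974, with summits 292 and 338 bp upstream. The other ranked 8063 in replicate 1 and 1653 in replicate 2 and lay in the 5′ UTR, 145 and 90 bp downstream of the 5′ end. cyp-13A8 had peaks of ranks 10899 and 3624 with summits 124 bp apart, the widest gap among the pairs. Both cyp-13B genes had replicate 1 and pooled summits, none in replicate 2, and pooled ranks no better than the 21893 of cyp-13B2.

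In the cyp-33C subfamily, also of 11 genes, the counts ran the other way. A replicate 1 summit was present at 7 genes and a replicate 2 summit at 2, both of them overlapping pairs, and there was no IDR summit. The shares over all genes were 33.9% for replicate 1 and 17.9% for replicate 2. A single replicate 1 peak was counted for both cyp-33C6 and cyp-33C7. cyp-33C5 led it, with ranks of 2394 (signal 15.2) and 1159 (signal 35.2) and summits 33 and 26 bp upstream, 7 bp apart. The cyp-33C2 pair ranked 4137 and 5530 and lay in a coding exon, 443 and 480 bp downstream of the 5′ end. The 3 cyp-33E genes all had a pooled summit. cyp-33E3 had the best pooled rank, 3793, and an overlapping pair of ranks 9776 and 4003. cyp-33E2, whose product oxidises eicosapentaenoic acid, had a replicate 2 summit of rank 3679, 39 bp upstream, and none in replicate 1. At cyp-33A1 both replicates placed the summit on the same base, 147 bp upstream, though at ranks of 15735 (signal 7.83) and 1842 (signal 28.0). No summit was found at cyp-33B1 or at either cyp-33D gene.

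In the cyp-34A subfamily 7 of 8 genes had a pooled summit, 6 a replicate 1 summit and 4 a replicate 2 summit, and none had an IDR summit in its window. Overlapping pairs were found at 3 genes. Over all genes the shares were 52.1% for the pooled list, 33.9% for replicate 1, 17.9% for replicate 2, 2.95% for the IDR set and 12.2% for pairs. cyp-34A9 had the best ranks, 4654 (signal 11.8) and 2865 (signal 22.2), at 86 and 54 bp upstream. cyp-34A8 ranked 10382 and 3998 with summits 8 bp apart, and cyp-34A2 ranked 9542 and 2975. cyp-34A5 had a summit in each replicate, in the coding sequence in replicate 1 and 72 bp upstream in replicate 2, and these peaks did not overlap. The replicate 1 peak ranked 17066 of 17087 (signal 7.608, lowest in the list 7.604), and the replicate 2 peak ranked 4973. Its place among the genes with a summit in both replicates thus rests on an entry at the floor of the list.

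The cyp-35 family, whose cyp-35A genes are known for induction by foreign compounds and for a part in fat storage, had no replicate 2 summit at any of its 10 genes. A pooled summit was found at 4 and a replicate 1 summit at 4, and 5 had none in any list. Over all genes the shares were 17.9% for replicate 2, 52.1% for the pooled list, 33.9% for replicate 1 and 42.9% for no summit. Differences from these shares were not tested. cyp-35A5 had the highest pooled rank, 6761 (signal 23.4), and cyp-35A1 the highest replicate 1 rank, 4048 (signal 12.4), with a summit 3 bp upstream of the 5′ end. cyp-35B1, a gene known to respond to insulin signalling through DAF-16, ranked 4560 in replicate 1, 34 bp upstream, and 9430 in the pooled list.

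Among the 3 cyp-29A genes each had a pooled summit, and it was the only subfamily with 2 IDR members. The third gene, cyp-29A2, had a replicate 2 summit of rank 4497, 61 bp upstream, and none in replicate 1. The cyp-14A subfamily split, with peaks at cyp-14A1 and cyp-14A5 in every list except the IDR set, where only cyp-14A1 had a summit in its window, and with no summit in any list at the other 3. The cyp-25A subfamily had summits at 2 of 5 genes, and cyp-25A2 led it with a replicate 2 rank of 2631. The other 3 cyp-25A windows were among the 4 cyp windows richest in duplicated sequence, as given below. cyp-37A1 ranked 1730 (signal 17.7) in replicate 1, 793 (signal 41.9) in replicate 2 and 1013 (signal 59.2) in the pooled list, with summits 5 bp apart between replicates. They lay 1481 and 1486 bp upstream, just inside the window edge and in an intron of F01D5.10, and no IDR peak overlapped the window. Together with cyp-29A4 it made up the 2 genes found among the 1014 highest-signal pooled peaks, and cyp-13A5, at 1043, was the next below.

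No summit of any list was found for 8 of the 25 subfamilies, which are cyp-23A, cyp-31A, cyp-32B, cyp-33B, cyp-33D, cyp-35C, cyp-35D and cyp-42A. Apart from cyp-31A and cyp-33D, which has 2 genes, each of these holds 1 gene. Among all genes 42.9% had no summit, so an empty subfamily of 1 gene says little. The cyp-31A genes, known for their part in forming the lipid layer of the eggshell, were the largest of these, with 3 genes. Pooled summits without a replicate 2 summit marked cyp-44A1, which resembles the mitochondrial P450s, at rank 28921, cyp-37B1 at 25161 and cyp-32A1 at 11788. Both cyp-37B1 and cyp-32A1 also had a replicate 1 summit. The cyp-44A1 and cyp-37B1 summits were weak, while the cyp-32A1 signal of 19.7 lay above the pooled median of 18.2. cyp-13A12, known for its part in the response to renewed oxygen, had a replicate 1 summit of rank 14925 in its 5′ UTR and no other.

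Chromosome V held 41 of the 74 genes (55.4%), with 12 on II, 7 each on IV and X, 6 on III and 1 on I. On chromosome V 2 cyp genes had an IDR summit, where 2.103% of all genes did, on X 2 (all genes 3.44%) and on II 1 (all genes 2.61%). On V 8 cyp genes had overlapping replicate pairs, where 9.39% of all genes did. Of the genes that lie close together, 45 fell into 11 clusters, defined by 5′ ends within 20 kb of the next cyp gene. An IDR summit was found at 2 of the 45 clustered genes and at 3 of the 29 others (all genes 2.95%). An overlapping pair was found at 10 of the 45 and 5 of the 29 (all genes 12.2%). No summit was found at 15 of the 45 and 13 of the 29 (all genes 42.9%). The groups differ in size, and the difference between them was not tested.

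**Figure D3:**
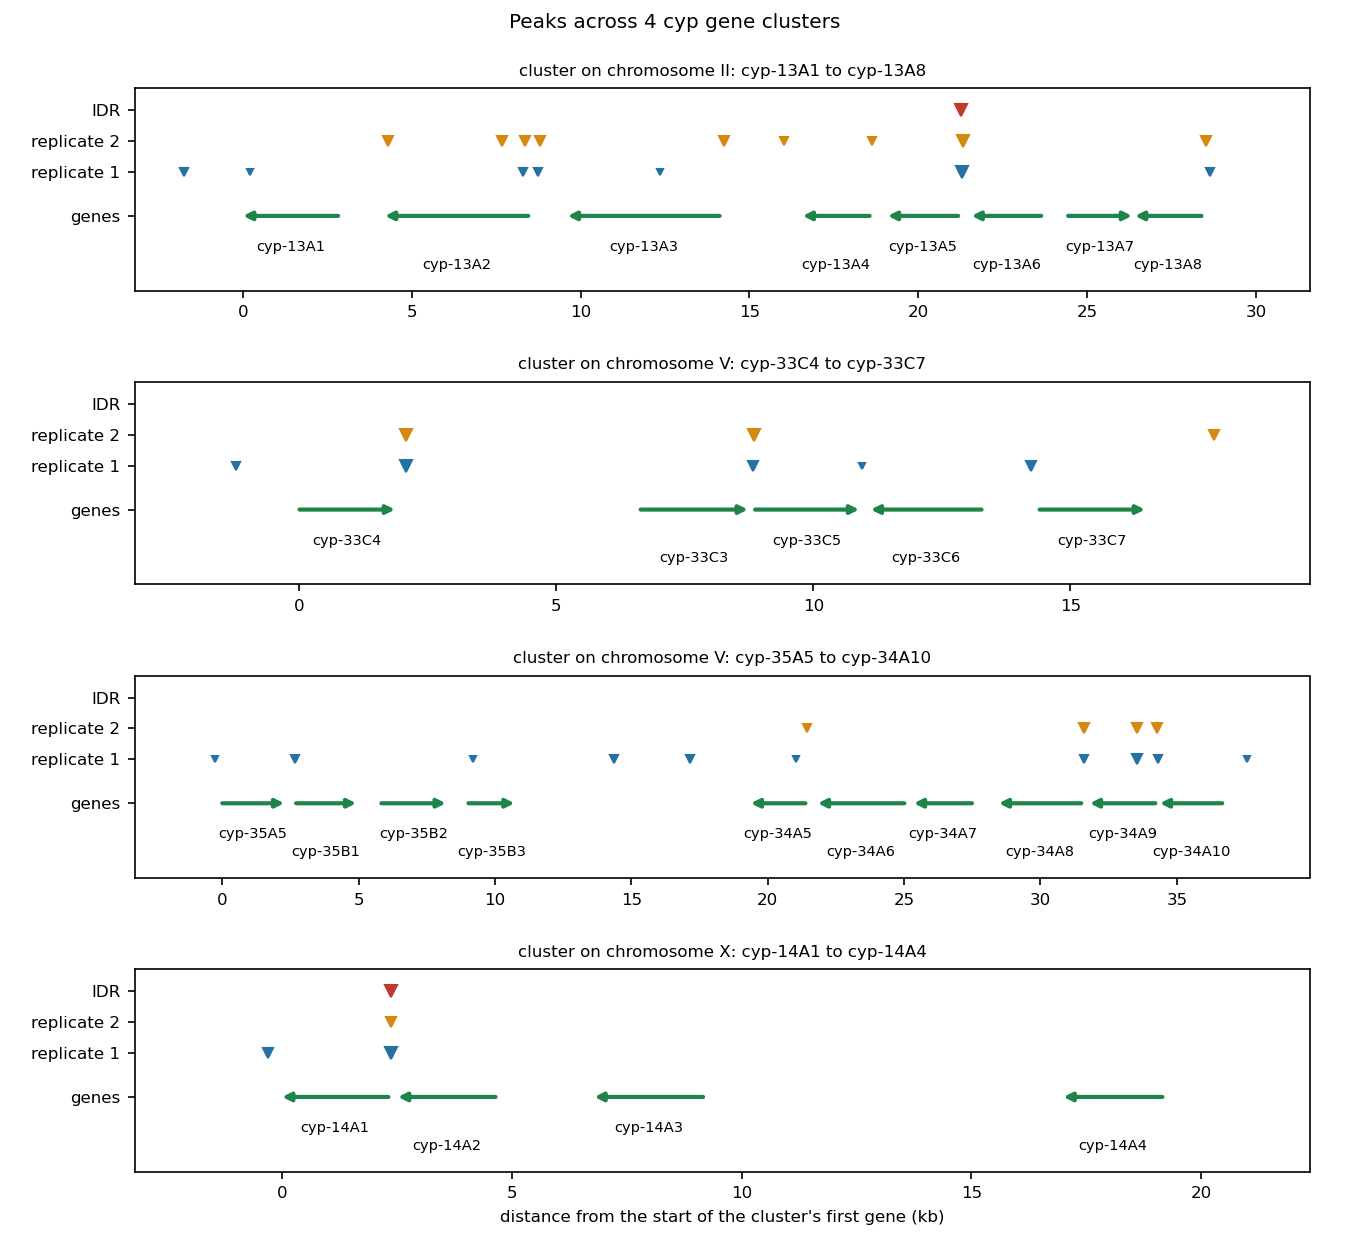
Peaks of the IDR set and of both replicates (triangles at the summit, larger for higher rank) along 4 cyp gene clusters, in kb from the start of the first gene; arrows are cyp genes pointing in the direction of transcription, and other genes are not drawn. Among them the clusters of cyp-13A and cyp-14A genes hold 1 IDR peak each, at cyp-13A5 and cyp-14A1.

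How many neighbouring cyp genes shared a peak depended on the window, with 2 genes at the window used here, 0 at 500 bp upstream and 250 bp downstream, and 16 at 3000 and 1000 bp. The shared summit at the window used here was the one between cyp-33C6 and cyp-33C7, which lay 962 and 168 bp upstream of their 5′ ends, ranked 7032 in the pooled list (signal 23.1) and 2923 in replicate 1 (signal 13.99), and was not found in replicate 2. It was counted for cyp-33C7 alone when only the nearest 5′ end was counted. No IDR summit was shared with any gene. A pooled summit was shared with a gene of another kind by 6 cyp genes, and for 4 genes (cyp-13A1, cyp-25A1, cyp-33C6 and cyp-35A2) the best pooled summit lay nearer to another gene. How often genes in general share a summit is not given here, so these counts cannot be called few or many.

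Within a cluster the peaks were uneven. For the counts that follow, 33.9% of all genes had a replicate 1 summit and 17.9% a replicate 2 summit. The 8 genes of the cyp-13A cluster on chromosome II, over 28.4 kb, had replicate 2 summits at 6, replicate 1 summits at 3, and the IDR summit at cyp-13A5. In the 4-gene cyp-14A cluster on X, over 19.2 kb, every summit in a promoter window belonged to cyp-14A1. The largest cluster held 10 genes over 36.7 kb of chromosome V, from cyp-35A5 to cyp-34A10. It had no IDR peak within its span, replicate 1 summits at 7 genes, replicate 2 summits at 3 and overlapping pairs at cyp-34A8 and cyp-34A9. An IDR peak of rank 35 (signal 133.4) stood 7051 bp upstream of cyp-34A10, just past the end of this cluster, and was nearest to nlp-31, an antimicrobial peptide gene of the epidermis. The pair of cyp-34A1 and cyp-34A2 spanned the distal cyp-34A1 peak, and apart from it and the cyp-13A and cyp-14A clusters no cluster spanned an IDR peak.

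Duplicated sequence, which can hide or split reads, was counted as 31-base words found more than once in the genome. Such words made up a median of 1.47% of a cyp window, none in 24 windows, over 10% in 16 and over 50% in 4 (cyp-25A6, cyp-25A4, cyp-13A8 and cyp-25A3). Of these 4, cyp-25A6 (71.0%), cyp-25A4 (56.1%) and cyp-25A3 (53.8%) had no summit in any list. The cyp-13A8 window (54.5%) had an overlapping replicate pair. None of the 5 IDR peaks in cyp windows held a repeated word, and the IDR peaks beyond the windows were not counted for repeats. Without the 16 windows, the IDR count was still 5, the count for both replicates 14 and the pooled count 38. These counts are over fewer cyp genes than the 74, so they cannot be set directly beside the whole counts. With those windows left out, the shares of all genes were 2.96%, 13.6% and 52.1%. How the authors treated reads that match several places is not given in the sources used here, and its part in the genes without a summit was not tested.

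A GATA hexamer lay within 50 bp of 4 of the 5 IDR summits (80.0%, Wilson interval 37.6 to 96.4%), beside 48.2% of the 467 IDR summits in any promoter window. Of the 53 pooled summits in cyp windows 22 had one (41.5%, interval 29.3 to 54.9%), beside 25.9%. In replicate 1 it was 14 of 34 (41.2%, interval 26.4 to 57.8%) beside 26.8%, and in replicate 2 10 of 25 (40.0%, interval 23.4 to 59.3%) beside 31.8%. The cyp share was the higher one in every list, and the background lay within the interval in the IDR set and both replicates but below it in the pooled list. With the 3 distal peaks, 7 of 8 IDR peaks nearest to a cyp gene had a hexamer, beside 52.6% of all IDR summits. The pooled share was 18.9% within 25 bp and 67.9% within 100 bp, and within 100 bp all 5 IDR summits had a match. Shares over all summits were not counted at these widths, so these values have no background beside them.

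Hexamers were also frequent in cyp promoters where no peak was found. Between 250 bp upstream and 50 bp downstream, counted at the 5′ end, 61 of 74 cyp genes (82.4%, interval 72.2 to 89.4%) had at least 1, beside 54.6% of all genes, with a mean of 1.61 sites beside 0.859. The share was 86.7% for the 15 genes with overlapping replicate pairs and 75.0% for the 28 without a summit (intervals 62.1 to 96.3% and 56.6 to 87.3%), which overlap. For all genes of the same kinds it was 57.0% and 53.2%. Each of the 4 hexamers was more frequent in cyp promoters, at 35.1% beside 21.2% for AGATAA, 43.2% beside 30.3% for TGATAA, 14.9% beside 9.22% for AGATAG and 24.3% beside 11.2% for TGATAG.

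**Figure D4:**
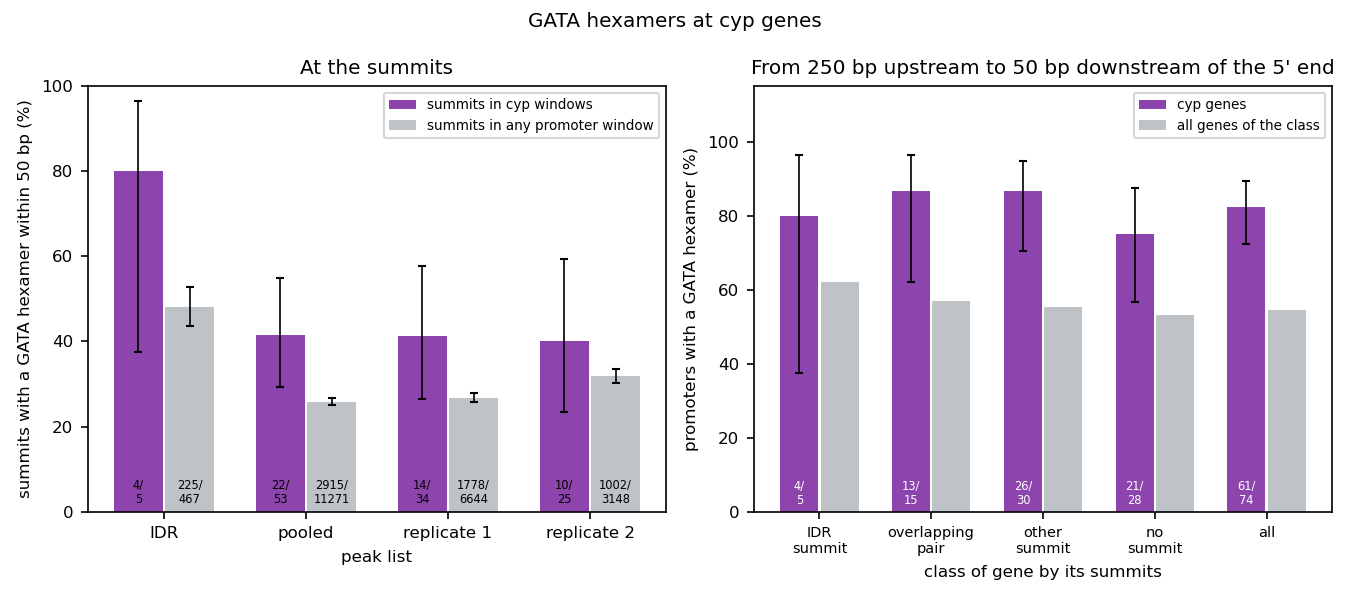
Share of summits with a GATA hexamer within 50 bp, by list (left), and share of promoters with one, by the summits a gene has (right), for cyp genes (purple) and for summits in any promoter window or all genes of the class (gray); numbers give matches over total, bars on the purple columns and on the left gray columns are 95% Wilson intervals, and the right gray columns have none drawn. The class with overlapping pairs includes 4 of the 5 genes with an IDR summit, and every purple column stands above its gray one.

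Promoters of cyp genes were also slightly richer in A+T. The median A+T share of cyp promoters was 67.8%, beside 65.8% of all promoters. With all genes split into 4 similar-sized groups from the lowest A+T share to the highest, a hexamer was found in 6 of 6, 10 of 16 (62.5%), 24 of 28 (85.7%) and 21 of 24 (87.5%) cyp promoters, beside 49.4%, 54.3%, 56.6% and 58.5% of all. The same hexamers with their letters in reverse order (AATAGA along with AATAGT, and GATAGA along with GATAGT), which can overlap a GATA hexamer, were found in 54 of 74 cyp promoters (73.0%) beside 52.9% of all. The cyp share was the higher one in each of the 4 groups and did not rise steadily with A+T. The part of composition in the share was not tested.

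Genes that work with P450 enzymes were counted in the same way. Of 3 electron transfer partners, cytb-5.1, a cytochrome b5, had an IDR summit (rank 408, signal 65.6, replicate ranks 938 and 792), 1499 bp upstream and so at the very edge of the window. Of 7 genes of dafachronic acid signalling, the steroid hormone pathway that includes daf-9, none had an IDR summit, 1 had an overlapping pair and 6 had a pooled summit, and these shares stand beside 2.95%, 12.2% and 52.1% of all genes. Of 14 regulators linked to cyp genes, such as the nuclear receptor gene nhr-8 and the Nrf-like factor gene skn-1, the counts were 0, 4 and 11. Of 9 heme transport genes they were 0, 0 and 6.

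The conjugating enzymes, which act after P450 oxidation, gave IDR shares on either side of that of the cyp genes. Of 67 UDP-glucuronosyltransferase genes 7 (10.4%) had an IDR summit, 22 (32.8%) an overlapping pair and 50 (74.6%) a pooled summit, beside 2.95%, 12.2% and 52.1% of all genes. Of these 7, ugt-9 and ugt-11 shared 1 peak, and ugt-25 had the highest rank, 167. Of 44 glutathione S-transferase genes 2 (4.55%) had an IDR summit, 7 (15.9%) an overlapping pair and 30 (68.2%) a pooled summit, of which the IDR and overlapping-pair shares lay near those of all genes. gst-42, an enzyme of tyrosine breakdown, ranked 72 (signal 109.8) with its summit 20 bp upstream, also in the window of D1053.2, and so higher than any cyp peak within a window. The differences between these families and the cyp genes were not tested.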

How the data were processed

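ChIP-seq of tagged ELT-3 in whole L1 larvae was analysed from ce11 peak lists of 2 biological replicates, their pool and the IDR set. Each peak has a signal value that the authors deposited, used only to rank peaks within a list, and a deposited score, which entered no result. The lists were made from ChIP and control alignments, per the deposited records. What aligner, peak caller and thresholds were used is not given in the sources used here. A further 4 lists, on ce10, were not used. IDR peaks are not entries of the pooled list, so they were matched to other lists by an overlap of at least 1 bp.

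Genes came from Ensembl release 115 (WBcel235, the same assembly as ce11) and sequence from the RefSeq genome. The 5′ end is the outermost annotated base of the gene. Coordinates are 1-based. A peak counted for every gene whose window held its summit. GATA hexamers were searched on both strands, with positions counted from the summit to the first base of the match along the gene strand. Shares carry Wilson intervals, which cover counting error only. No test was made, since there is 1 group. The members and lists were chosen with earlier results of these data known. Named were genes with an IDR summit or an overlapping replicate pair, the member of each subfamily with the highest pooled signal, sharers of strong peaks and genes nearest to the window edges. Other named genes, which include cyp-34A1, cyp-29A2, cyp-34A5, cyp-33E2, cyp-13A12, cyp-35A1, cyp-33C6, cyp-33C7 and those of other families, were picked with their values in view. The counting was tested on simulated data. Python 3.11.15, numpy 2.4.6, scipy 1.17.1, biopython 1.88 and matplotlib 3.10.9 were used.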

Additional observations from a re-analysis of the deposited data

How the results depend on the processing

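The alternatives changed the window, the 5′ end, the list, the list length, and the motif and its window. Of 48 alternative values, 33 stayed close to those reported and 15 moved. This was judged on the cyp value alone, without the share of all genes. Counts were judged by their ratio to the reported count, and hexamer shares by the reported Wilson interval, which is wide for the 5 IDR summits. With a window of 3000 and 1000 bp the pooled share, labelled close, was 73.0% beside 71.9% of all genes. With 500 and 250 bp the IDR share was 6.76% beside 1.68%. The share of cyp genes with an IDR summit, higher than that of all genes in the reported set, was the lower one with the highest-signal pooled peaks (2.70% beside 3.41%) and with those of replicate 2 alone (2.70% beside 3.44%). The 5 cyp genes with an IDR summit became 2 in the stronger 50% of IDR peaks by signal, 2 in the highest-signal pooled peaks, 2 to 3 with peaks of a single replicate, and 8 by the nearest 5′ end at any distance, which was added after seeing the data. At equal list length the 34 genes of replicate 1 became 16 and the 16 of both replicates became 10. The 2 genes sharing a summit became 0 with a window of 500 and 250 bp, 0 by the nearest gene, and 16 with a window of 3000 and 1000 bp. The 80.0% of IDR summits with a hexamer became 100% within 100 bp. The 41.5% of pooled summits became 18.9% within 25 bp, 67.9% within 100 bp, 15.1% with TGATAA only and 56.6% with GATA. For these hexamer alternatives the shares over all summits were not counted. Also added after seeing the data were the counts without repeated sequence, the hexamers with reversed letters and a promoter of 500 bp, where 89.2% of cyp genes and 74.3% of all genes held a hexamer. Depth limits every absence, since a missing peak is only one not listed. No paired analysis was possible because there is 1 group of samples.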
